A study of Macaca mulatta with 11 samples.

Results

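The genes described here carry glucose into the cell, break it down, move and make lactate, or lead back toward glucose: SLC2A1, SLC16A1, PFKL, PFKP, ALDOC, LDHA and PCK1. They were measured in cumulus cells of the rhesus monkey, the somatic cells that surround the oocyte, on 11 Affymetrix Rhesus Macaque arrays with 1 RNA sample each. Members were all probe sets whose annotation gives 1 of these 7 symbols, which yielded 13 of 52766 non-control probe sets and 7 of 14132 genes with a symbol of their own. In the 4 pre-maturation samples (PM), the cells came from immature cumulus-oocyte complexes of animals given follicle-stimulating hormone (FSH) only. In the 3 in vitro matured samples (IVM), complexes obtained after FSH went through maturation in culture. In the 4 in vivo matured samples (VVM), FSH was followed by human chorionic gonadotropin (hCG) and the complexes matured in the animal. All 11 samples thus come from FSH-stimulated animals, and hCG was given in VVM alone. Ages, culture medium and times are not given in the labels, and neither is it said whether each sample came from its own animal or from a pool, so a p-value reflects the spread among the arrays, part of which may be technical. The series design names the comparison of IVM with VVM, for markers of oocyte quality, and uses PM as the starting point of both transitions.

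The oocyte takes up and uses glucose poorly, and the cumulus cells around it take up glucose, run glycolysis and hand on pyruvate and lactate. Glucose enters through facilitative carriers of the SLC2A family, phosphofructokinase commits it to glycolysis, aldolase splits the sugar bisphosphate, and lactate dehydrogenase interconverts pyruvate and lactate, which cross the membrane on monocarboxylate carriers of the SLC16A family. In expanding cumulus, glucose also feeds the hexosamine pathway, which supplies building blocks of the hyaluronan matrix. Phosphoenolpyruvate carboxykinase, encoded by PCK1, runs the other way and is best known for the first committed step of gluconeogenesis in liver and kidney.

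All levels are log2 values of the authors' RMA intensities, and array medians lay between 5.34 and 5.53. The medians were 5.34 to 5.36 in PM, 5.45 to 5.53 in IVM and 5.43 to 5.49 in VVM. Every PM array thus had a lower median than every matured array, which adds to small rises from PM. Correlations of arrays within a group ranged from 0.974 to 0.987 over the probe sets, and probe sets are no independent replicates. Of 18 listed cumulus and granulosa markers 16 were measured, and none was below the array median on every array. Their summed linear intensity was 46391 to 56355 in PM, 44695 to 53868 in IVM and 31628 to 39883 in VVM. Of 18 listed leukocyte markers 13 were measured, with a summed intensity of 1462 to 1685 in PM, 808 to 995 in IVM and 673 to 3376 in VVM; the B cell marker MS4A1 was below the array median on every array. The mean log2 level of 4 leukocyte genes (LYZ, TYROBP, CD14 and PTPRC) was 4.37 ± 0.14 (SD, n = 4) in PM and 4.60 ± 0.10 (SD, n = 3) in IVM, and 5.41, 7.48, 8.70 and 5.36 in VVM 1 to 4, so VVM 2 and VVM 3 stood apart. Of the 13 markers, 6 were higher in VVM than in PM at an adjusted p under 0.05, these 4 among them, and 2 were lower. The lower ones were CSF1R (-2.57 ± 0.48), at 9.95 to 10.21 in PM, and ITGAM (-0.63 ± 0.18). Of 18 listed oocyte markers 10 were measured, with a summed intensity of 758 to 2554 in PM, 862 to 904 in IVM and 751 to 1194 in VVM, and PM 1 stood apart, with ZP3 at 9.57 beside 6.07 to 6.30 in the other PM arrays; PM 1, VVM 2 and VVM 3 were therefore left out together in an alternative. The 6 measured markers of surface and tubal epithelium summed to 463 to 664 in PM, 1045 to 2781 in IVM and 597 to 989 in VVM, with KRT19 higher in IVM than in PM by 2.44 ± 0.44 (adjusted p = 0.00162). KRT18 was higher than in PM by 1.60 ± 0.40 in IVM and 2.36 ± 0.37 in VVM. EPCAM, KRT8, CDH1 and OVGP1 did not differ from PM at an adjusted p under 0.05. The 7 endothelial markers summed to 317 to 348 in PM, 408 to 446 in IVM and 383 to 1147 in VVM, with VWF higher in VVM than in PM by 2.32 ± 0.47 (adjusted p = 0.00354), and the 2 measured erythrocyte markers to 241 to 475, 171 to 212 and 391 to 1087. PECAM1 was higher in VVM than in PM by 0.81 ± 0.27, and the other endothelial markers did not differ between VVM and PM at an adjusted p under 0.05. The 4 measured markers of fibroblasts and smooth muscle summed to 504 to 1964 in PM, 368 to 505 in IVM and 382 to 999 in VVM. Among them, MYH11 was lower in IVM than in PM by -2.10 ± 0.70, and COL1A1 was higher by 0.91 ± 0.13. COL1A2 and COL3A1 did not differ from PM at that threshold. The 3 measured theca markers summed to 125 to 146 in PM, 144 to 168 in IVM and 145 to 296 in VVM. The 27 probe sets for bacterial hybridization controls, which are added to the sample and not made by the cells, had a mean log2 level (± SD) of 11.92 ± 0.40 in the 3 IVM arrays, 11.04 ± 0.43 in the 4 VVM arrays and 10.09 ± 0.21 in the 4 PM arrays. The log2 difference between 3' and 5' control probe sets of ACTB and GAPDH, a measure of RNA length, was 3.93 ± 0.38, 3.70 ± 0.19 and 3.34 ± 0.11 in the same order. These measures moved with the groups, as the plot of control and leukocyte levels shows. With the hybridization control level as a covariate only 2 of all 14132 genes differed between IVM and PM, none of them a member. That level was 9.89 to 10.28 in PM, 10.41 to 11.32 in VVM and 11.46 to 12.18 in IVM, without overlap. Such a fit can hardly tell group and control level apart, so calls lost or signs turned under it decide nothing about a gene. The part of these measures in the results was otherwise not tested, except where a value is given beside a result.

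**Figure D1:**
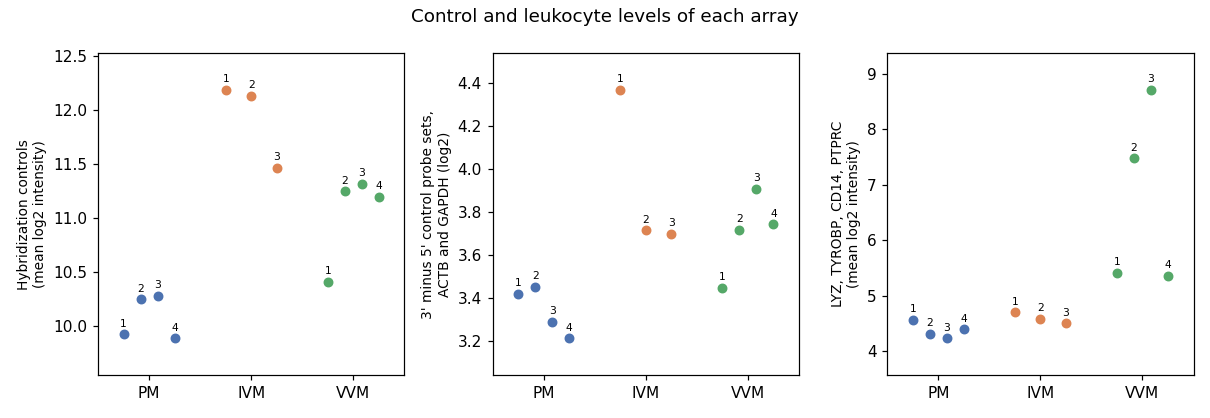
Hybridization control level (left), 3' minus 5' control difference (middle) and mean level of 4 leukocyte genes (right) of each of the 11 arrays, in log2 units; points are arrays, with their replicate number. IVM arrays are highest for the hybridization controls, at 11.46 to 12.18, and VVM 2 and VVM 3 are highest for the leukocyte genes, at 7.48 and 8.70.

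From PM to IVM, SLC16A1, SLC2A1, PFKL and PFKP fell and PCK1 rose, and from PM to VVM, SLC16A1, SLC2A1, PFKL and PFKP fell. Between the matured groups, PCK1 was higher and ALDOC lower in IVM. LDHA passed the test in no comparison. A gene, represented by its probe set with the highest mean, was called when limma's p, adjusted by the Benjamini-Hochberg method over all 52766 probe sets, was under 0.05. By that rule 5 of the 7 genes were called for IVM against PM, where 45.9% of all genes were (25% higher and 20.9% lower). For VVM against PM, 4 were called, beside 39.8% of all genes (18% higher and 21.8% lower). For IVM against VVM, 2 were called, beside 16.7% of all genes (9.06% higher and 7.63% lower). Over the 13 probe sets, 9, 6 and 5 were called, beside 40.6%, 31.2% and 11.4% of all probe sets. With so large a part of all genes changing from PM, these counts alone do not set the 7 genes apart. The median log2 difference of the 7 genes was -1.32 for IVM against PM, -1.72 for VVM against PM and -0.19 for IVM against VVM, and over all genes it was 0.12, 0.04 and 0.08. Log2 differences are signed, the first-named group minus the second, so a fall carries a minus sign. Both transitions share the PM arrays. In bulk RNA, fewer cells expressing a gene and less RNA per cell cannot be told apart.

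**Figure D2:**
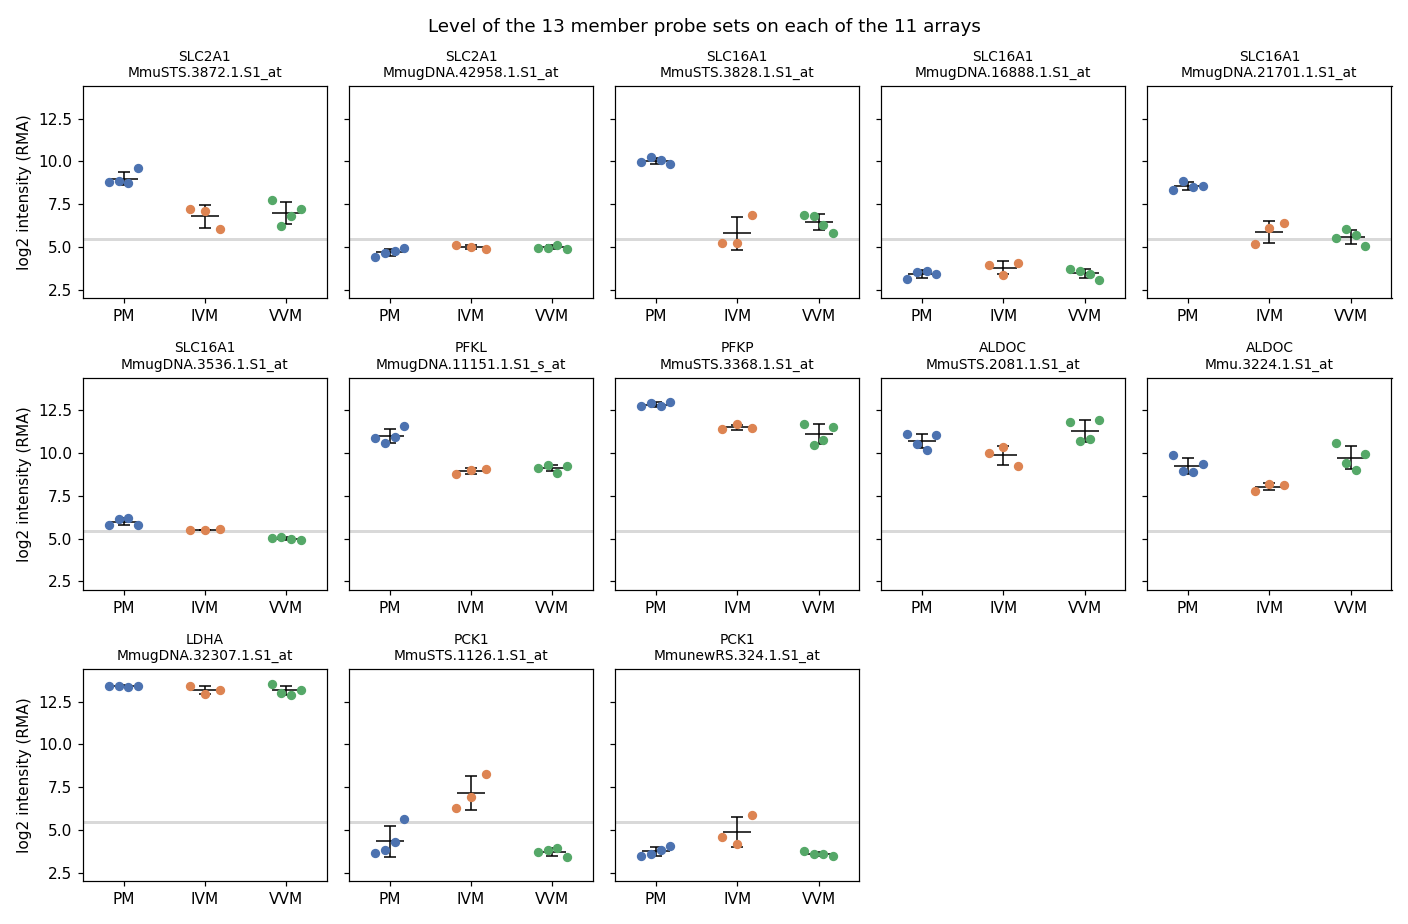
Log2 RMA intensity of each of the 13 member probe sets on each array, by group (4 PM, 3 IVM and 4 VVM arrays); points are arrays in replicate order, horizontal bars the group mean, whiskers 1 SD and the grey band the range of the array medians, 5.34 to 5.53. PFKL, PFKP and the brightest probe sets of SLC16A1 and SLC2A1 are highest in PM, and the brighter PCK1 probe set stands above the grey band in the 3 IVM arrays.

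SLC2A1 encodes GLUT1, the facilitative carrier that brings glucose into most cells. Its brighter probe set, MmuSTS.3872.1.S1_at, read 8.80, 8.86, 8.75 and 9.61 in PM, 7.24, 7.13 and 6.03 in IVM, and 7.74, 6.23, 6.80 and 7.21 in VVM. Every PM array was above every matured array, PM 4 was the highest, and the IVM and VVM arrays lay among each other. From a PM mean of 9.0 ± 0.40 (SD, n = 4), the log2 difference was -2.20 ± 0.38 (SE) in IVM, 4.61-fold lower (adjusted p = 0.00113), and -2.01 ± 0.35 in VVM, 4.03-fold lower (adjusted p = 0.00138). IVM and VVM differed by -0.19 ± 0.38 (adjusted p = 0.789), with a 95% interval from -1.02 to 0.63, and the sign of this difference turned without IVM 3 (0.19) or VVM 1 (0.054). VVM 2, with its high leukocyte genes, had the lowest VVM value, and with the leukocyte level as a covariate the fall in VVM was -1.40 and lost its call (adjusted p = 0.0995). The other probe set, MmugDNA.42958.1.S1_at, was below the median of its array on all 11 arrays, at 4.42 to 5.15, and was called in no comparison.

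SLC16A1 encodes MCT1, the proton-coupled carrier of lactate and pyruvate, and had the largest fall of the 7 genes in both transitions. Its brightest probe set, MmuSTS.3828.1.S1_at, read 9.96, 10.27, 10.08 and 9.84 in PM, 5.26, 5.23 and 6.89 in IVM, and 6.85, 6.79, 6.29 and 5.84 in VVM. The PM arrays were close together and lay at least 2.95 above the highest matured array. IVM 1 and IVM 2 were below the median of their arrays, while IVM 3 was at the level of the highest VVM arrays. The log2 difference from PM was -4.24 ± 0.37 in IVM (adjusted p = 2.31e-05) and -3.59 ± 0.35 in VVM, 12.1-fold lower (adjusted p = 3.77e-05). IVM was -0.65 ± 0.37 from VVM (adjusted p = 0.299); without IVM 3 this difference was -1.20 and was called (adjusted p = 0.0168).

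The SLC16A1 probe set MmugDNA.21701.1.S1_at gave the same order of PM over the matured groups, with 8.32, 8.88, 8.53 and 8.56 in PM, 5.16, 6.10 and 6.38 in IVM, and 5.55, 6.03, 5.72 and 5.08 in VVM. It fell by -2.69 ± 0.29 in IVM (adjusted p = 6.27e-05) and by -2.98 ± 0.27 in VVM (adjusted p = 2.51e-05), and the matured groups overlapped. The dimmer probe set MmugDNA.3536.1.S1_at separated all 3 groups, with 5.77, 6.12, 6.17 and 5.82 in PM, 5.49, 5.49 and 5.53 in IVM, and 5.03, 5.08, 4.95 and 4.93 in VVM. Its log2 difference was -0.46 ± 0.12 for IVM against PM (adjusted p = 0.0114), -0.97 ± 0.11 for VVM against PM (adjusted p = 0.000109) and 0.51 ± 0.12 for IVM against VVM (adjusted p = 0.0208). That last call, opposite in sign to the brightest probe set, was lost without IVM 2 (0.52, adjusted p = 0.0575) and with the replicate block (0.47, adjusted p = 0.0590), and all VVM values of this probe set were below the array medians. The fourth probe set, MmugDNA.16888.1.S1_at, was below the array median throughout, at 3.09 to 4.07, and was not called. The probe sets of SLC16A1 therefore share the fall from PM where they are bright, and give no common order of IVM and VVM.

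PFKL and PFKP encode the liver-type and platelet-type subunits of phosphofructokinase, the enzyme that commits sugar phosphate to glycolysis. The single PFKL probe set, whose identifier marks probes that can match several transcripts, read 10.86, 10.58, 10.95 and 11.56 in PM, 8.75, 9.03 and 9.04 in IVM, and 9.13, 9.30, 8.85 and 9.23 in VVM. All matured arrays were well below all PM arrays and overlapped each other. The log2 difference was -2.05 ± 0.21 in IVM, 4.13-fold lower (adjusted p = 4.62e-05), and -1.86 ± 0.19 in VVM, 3.63-fold lower (adjusted p = 5.56e-05). IVM and VVM differed by -0.19 ± 0.21, with a 95% interval from -0.64 to 0.26 (adjusted p = 0.605).

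PFKP read 12.73, 12.89, 12.72 and 12.97 in PM, 11.39, 11.67 and 11.47 in IVM, and 11.69, 10.46, 10.79 and 11.49 in VVM. The matured arrays were all below PM, and VVM 2 and VVM 3, the arrays with high leukocyte genes, were the lowest. PFKP fell in IVM by -1.32 ± 0.25, 2.49-fold (adjusted p = 0.00227), and in VVM by -1.72 ± 0.23, 3.29-fold (adjusted p = 0.000305). IVM against VVM gave 0.40 ± 0.25 (adjusted p = 0.342), and the sign turned with the leukocyte level as a covariate (-0.24) and without PM 1, VVM 2 and VVM 3 together (-0.083). With the leukocyte covariate the fall in VVM was -1.01 (adjusted p = 0.0235), and with the 3' to 5' difference as a covariate the fall in IVM was -0.92 and lost its call (adjusted p = 0.124).

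ALDOC encodes aldolase C, 1 of the isoforms that split fructose bisphosphate, and was the member with a lower level in IVM than in VVM. Its brighter probe set, MmuSTS.2081.1.S1_at, read 11.08, 10.54, 10.20 and 11.04 in PM, 10.01, 10.34 and 9.22 in IVM, and 11.79, 10.71, 10.81 and 11.92 in VVM. The second and dimmer one read 9.88, 8.93, 8.87 and 9.38 in PM, 7.79, 8.20 and 8.13 in IVM, and 10.57, 9.41, 9.02 and 9.93 in VVM. In both probe sets every IVM array was below every VVM array, PM lay across the lower part of VVM, and VVM 1 and VVM 4 were the highest of all arrays. IVM was lower than VVM by -1.45 ± 0.36 in the first (2.74-fold, adjusted p = 0.0256) and by -1.69 ± 0.34 in the second (3.23-fold, adjusted p = 0.00906).

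The call of the second ALDOC probe set for IVM against VVM was kept whichever array was left out. That of the first was lost without IVM 1 (-1.53, adjusted p = 0.0520), IVM 3 (-1.13, 0.0786), VVM 1 (-1.29, 0.0652) or VVM 4 (-1.25, 0.0598). Against PM, the second probe set of ALDOC fell in IVM by -1.23 ± 0.34 (adjusted p = 0.0149), a call lost without IVM 1 (-1.10, adjusted p = 0.0582) and with the 3' to 5' covariate (-0.55, adjusted p = 0.449), while the first differed by -0.86 ± 0.36 and was not called (adjusted p = 0.0782). For VVM against PM the differences were 0.59 ± 0.34 (adjusted p = 0.204) and 0.46 ± 0.31 (adjusted p = 0.286). VVM 2 and VVM 3, with high leukocyte genes, had the lowest ALDOC values of VVM; without them and PM 1 the differences from PM were 1.26 (adjusted p = 0.0412) and 1.18 (adjusted p = 0.0149), and IVM against VVM was -2.0 (adjusted p = 0.0140) for the first probe set.

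LDHA encodes the A subunit of lactate dehydrogenase, which favours the making of lactate. Its probe set read 13.44, 13.44, 13.36 and 13.43 in PM, 13.40, 12.94 and 13.20 in IVM, and 13.52, 13.00, 12.91 and 13.19 in VVM. PM was tight, the matured arrays scattered more, and all 3 groups overlapped. The log2 difference was -0.24 ± 0.16 for IVM against PM (95% interval from -0.58 to 0.11, adjusted p = 0.241), -0.26 ± 0.14 for VVM against PM (from -0.58 to 0.06, adjusted p = 0.192) and 0.03 ± 0.16 for IVM against VVM (from -0.32 to 0.37, adjusted p = 0.941). The sign of this last difference turned without IVM 1 (-0.084), VVM 2 (-0.026) or VVM 3 (-0.058). The intervals against PM leave out falls of the size seen in PFKL, PFKP and the brightest probe sets of SLC16A1 and SLC2A1.

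PCK1, the cytosolic phosphoenolpyruvate carboxykinase, was the only member gene called higher, in IVM against both PM and VVM. Its brighter probe set, MmuSTS.1126.1.S1_at, read 3.63, 3.85, 4.28 and 5.66 in PM, 6.28, 6.93 and 8.27 in IVM, and 3.70, 3.85, 3.96 and 3.44 in VVM. The 3 IVM arrays and PM 4 were above the median of their arrays, and all VVM arrays and the other PM arrays were below it, so the PCK1 level in VVM is uncertain and no fold is given. As fitted on the deposited values, with a size that shares this uncertainty, the log2 difference was 3.42 ± 0.50 for IVM against VVM (adjusted p = 0.00185) and 2.81 ± 0.50 for IVM against PM (adjusted p = 0.00144). VVM differed from PM by -0.62 ± 0.46, which was not called (adjusted p = 0.336).

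The other PCK1 probe set, MmunewRS.324.1.S1_at, was dimmer and read 3.51, 3.61, 3.83 and 4.04 in PM, 4.60, 4.17 and 5.90 in IVM, and 3.76, 3.63, 3.60 and 3.48 in VVM. Again every IVM array was above every PM and VVM array, and IVM 3 was highest, but it alone passed the median of its array. The difference was 1.27 ± 0.32 for IVM against VVM (adjusted p = 0.0258) and 1.14 ± 0.32 for IVM against PM (adjusted p = 0.0155). The first of these was lost without VVM 2 (1.28, adjusted p = 0.0528), VVM 3 (1.27, 0.0511) or VVM 4 (1.23, 0.0573). Without IVM 3, the highest array, both calls stayed but the differences were smaller, at 0.77 (adjusted p = 0.0217) and 0.64 (adjusted p = 0.0167). For the brighter probe set of PCK1, IVM against VVM was called without each of the 11 arrays in turn.

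**Figure D3:**
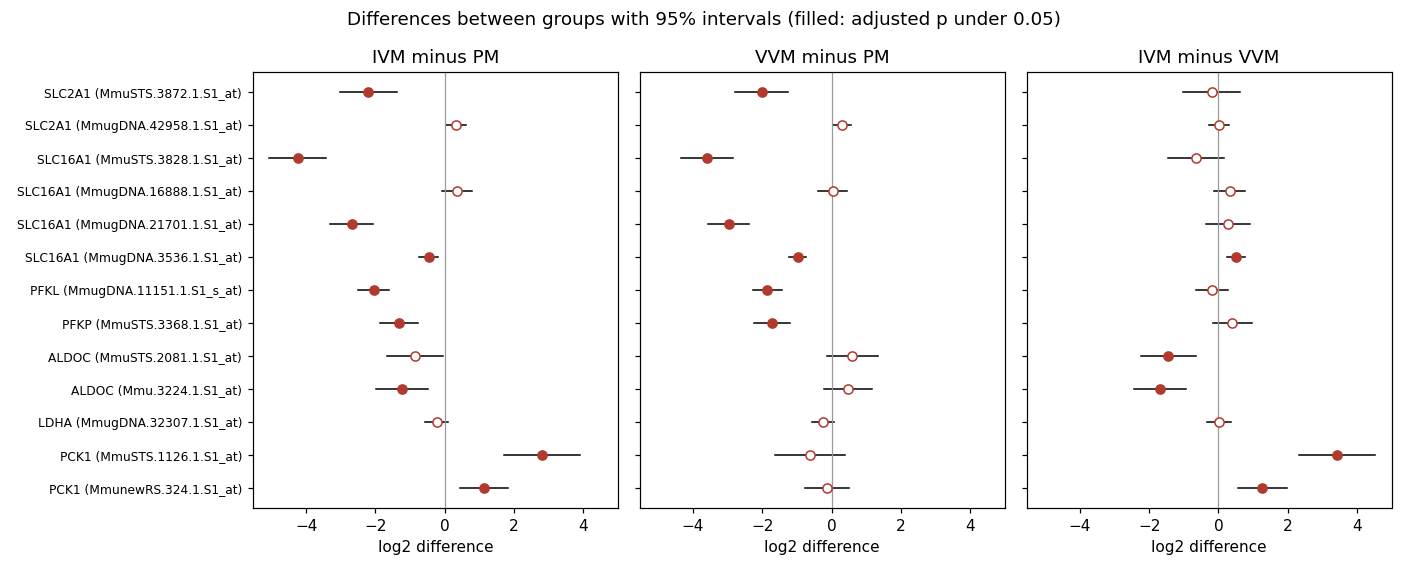
Log2 difference of each member probe set for IVM minus PM, VVM minus PM and IVM minus VVM; points are the differences from the limma fit, lines their 95% intervals, and filled points are called (adjusted p under 0.05). Both PCK1 probe sets lie right of 0 and both ALDOC probe sets left of it in the panel for IVM minus VVM, at 3.42, 1.27, -1.45 and -1.69; the size of the PCK1 differences is uncertain, since its VVM values lie below the array medians.

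The covariate for hybridization controls, whose level did not overlap between the groups, took away all calls of the 7 genes for IVM against PM. With it, the difference from PM in IVM was -2.43 for SLC16A1 (adjusted p = 0.259), -1.70 for SLC2A1 (0.534), -1.55 for PFKL (0.270), -0.32 for PFKP (0.876) and 4.58 for PCK1 (0.175). For VVM against PM it left SLC16A1 and PFKL called, and for IVM against VVM it left PCK1. The ALDOC difference between IVM and VVM was then -1.19 in the brighter probe set (adjusted p = 0.386) and -0.73 in the other (0.426).

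Around the 7 members, 126 other genes of glucose metabolism and its regulators were listed in 11 groups, and 88 were measured. Of these, 49 were called for IVM against PM (21 higher and 28 lower), 42 for VVM against PM (20 higher and 22 lower) and 19 for IVM against VVM (5 higher and 14 lower). Their median log2 differences were -0.05, 0.01 and -0.06, beside 0.12, 0.04 and 0.08 over all genes. The shares called, 55.7%, 47.7% and 21.6%, stand beside 45.9%, 39.8% and 16.7% of all genes. PFKM, LDHB and LDHC are not analysed here.

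**Figure D4:**
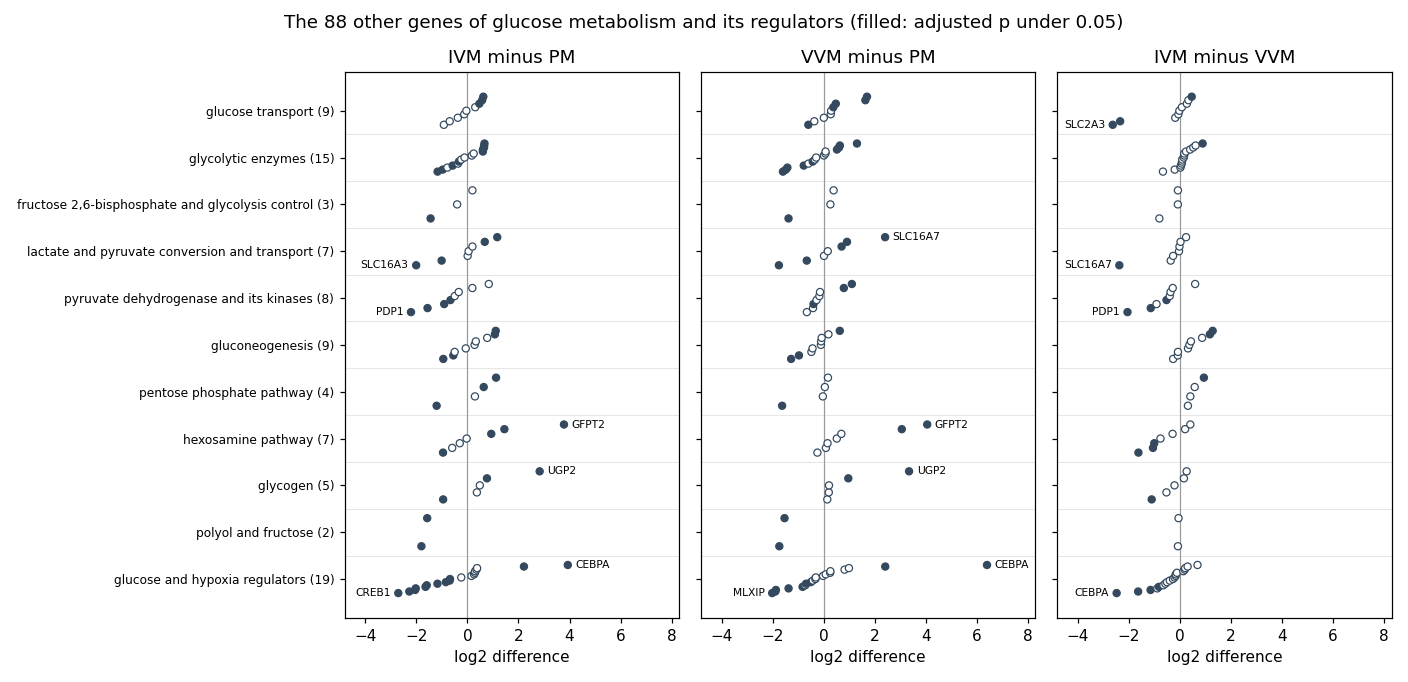
Log2 difference of the 88 other genes by group of genes, for IVM minus PM, VVM minus PM and IVM minus VVM; each point is a gene, the number of genes stands in brackets, filled points are called, and within each group the gene farthest from 0 on a side is named where it is 2 or more from 0. GFPT2, UGP2 and CEBPA lie far to the right of 0 in both comparisons with PM, at 3.78, 2.83 and 3.93 in IVM and 4.06, 3.35 and 6.40 in VVM.

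Among the other glucose carriers, 3 of 9 were called between IVM and VVM. SLC2A3, the high-affinity carrier GLUT3, read 7.51 to 7.98 in PM, 6.45 to 7.43 in IVM and 8.62 to 10.47 in VVM, and was thus highest in VVM, where SLC2A1 had fallen. For IVM against PM it differed by -0.92 ± 0.36, which was not called (adjusted p = 0.0603). It was lower in IVM than in VVM by -2.62 ± 0.36 (adjusted p = 0.00141) and rose from PM to VVM by 1.70 ± 0.33 (adjusted p = 0.00291), a rise of 0.77 that was not called with the leukocyte covariate (adjusted p = 0.223); VVM 3 was its highest array. A second bright SLC2A3 probe set had the same signs, and another (MmugDNA.40092.1.S1_at) fell from PM, by -1.27 ± 0.31 in IVM and -0.98 ± 0.28 in VVM. SLC2A10 was also lower in IVM than in VVM, by -2.33 ± 0.28, and rose to VVM by 1.64 ± 0.26. SLC2A8 was higher in IVM by 0.47 ± 0.12, a call lost without IVM 2 (0.37, adjusted p = 0.0961) and without VVM 1, VVM 2 or VVM 3 (0.44 to 0.47). From PM to IVM, SLC2A5, SLC5A1 and SLC5A2 rose by 0.47 to 0.62, and to VVM, SLC2A4 and SLC5A2 rose and SLC2A8 fell, though SLC2A4 was below the array median on every array.

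Of 15 other glycolytic enzymes, 9 were called in each transition and 1 between the matured groups. Some enzymes of the first and last steps fell, as PFKL and PFKP did, and others rose. HK2, a hexokinase, fell by -0.97 ± 0.18 in IVM and -1.59 ± 0.17 in VVM, and PKM, the pyruvate kinase of most tissues, fell by -1.17 ± 0.16 and -1.42 ± 0.15. HK1 and ENO1 fell in both, HK1 by -1.48 ± 0.19 in VVM. ALDOA, the widespread aldolase, fell in VVM by -0.78 ± 0.17 (adjusted p = 0.00538) and differed by -0.37 ± 0.18 in IVM (adjusted p = 0.129), where its other probe set was called (-0.80 ± 0.16). Other genes of the same steps, HK3 and ADPGK for the first and PKLR for the last, rose in both transitions, as did ENO2, and GPI rose in IVM. The other GPI probe sets were not called for IVM against PM (-0.11 ± 0.22 and -0.16 ± 0.22). The rise of HK3 in IVM, 0.67 ± 0.19, was lost without IVM 1 (0.60, adjusted p = 0.0620) or IVM 2 (0.59, 0.0641). HK1 was the enzyme called between IVM and VVM, higher in IVM by 0.90 ± 0.20 in its brightest probe set and lower by -0.91 ± 0.24 in MmugDNA.16459.1.S1_at. GAPDH was not called in any comparison. TPI1, the triose phosphate isomerase, was not called in its brightest probe set, while its other one, MmugDNA.1092.1.S1_at, fell by -0.92 ± 0.23 in IVM (adjusted p = 0.00933) and -1.12 ± 0.21 in VVM (adjusted p = 0.00254). Of 3 measured genes for the control of glycolysis, TIGAR, which lowers the activator of phosphofructokinase, fell by -1.44 ± 0.34 in IVM and -1.37 ± 0.31 in VVM. TIGAR was dim, with a mean log2 level below 6 over the arrays.

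Next to SLC16A1 and LDHA, 7 genes of lactate and pyruvate handling were measured. SLC16A3, the carrier MCT4 known for lactate export from glycolytic cells, read 9.19 to 10.71 in PM, 7.67 to 8.10 in IVM and 7.50 to 9.34 in VVM. It fell by -2.01 ± 0.42 in IVM (adjusted p = 0.00374) and by -1.75 ± 0.39 in VVM (adjusted p = 0.00619); the fall in VVM was -0.79 and not called with the leukocyte covariate (adjusted p = 0.340) and -1.10 and not called without PM 1, VVM 2 and VVM 3 (adjusted p = 0.144). SLC16A7, the high-affinity pyruvate carrier MCT2, did the reverse of SLC16A1 in vivo: it read 4.68 to 5.27 in PM, 4.38 to 5.54 in IVM and 6.92 to 7.82 in VVM. It rose from PM to VVM by 2.41 ± 0.26 (adjusted p = 7.28e-05) and was lower in IVM than in VVM by -2.37 ± 0.28 (adjusted p = 0.000635), with the same calls in a second, dim probe set. IVM and PM values of SLC16A7 overlapped, and all but that of IVM 1 were below the array medians. LDHD, the dehydrogenase for the other lactate isomer, fell by -1.01 ± 0.15 in IVM and -0.66 ± 0.14 in VVM. SLC16A8 rose in both transitions. BSG, the chaperone of these carriers, rose in IVM by 1.17 ± 0.34, a call lost without IVM 1 (1.16, adjusted p = 0.0550) or IVM 2 (1.05, 0.0719), and in VVM by 0.92 ± 0.32, a call lost without any of 10 of the 11 arrays (adjusted p up to 0.115). The other BSG probe sets were not called in either transition.

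Pyruvate dehydrogenase admits pyruvate to the citric acid cycle. Of its 8 measured genes, PDP1, the phosphatase that switches the complex on, was lower in IVM than in both other groups, by -2.21 ± 0.28 against PM (adjusted p = 0.000188) and -2.05 ± 0.28 against VVM (adjusted p = 0.00141). The subunit genes DLD, PDHX and DLAT fell in IVM, by -1.56 ± 0.27, -0.91 ± 0.14 and -0.67 ± 0.20. PDK1, a kinase that switches the complex off, was lower in IVM than in VVM by -1.13 ± 0.24, a call lost without IVM 2 (-1.02, adjusted p = 0.0564). DLD and PDK1 were dim, with mean log2 levels below 6 over the arrays. PDK1 and PDK4 rose in VVM by 0.79 ± 0.22 and 1.11 ± 0.31, calls lost without PM 2 (0.71, adjusted p = 0.0535) or VVM 3 (0.72, 0.0531) and without PM 4 (1.02, 0.0507). PDHX was also called for IVM against VVM (-0.52 ± 0.14) and VVM against PM (-0.39 ± 0.13), but the first was lost without each of 5 arrays (adjusted p up to 0.117) and the second without each of 7 (up to 0.110).

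Of 9 other gluconeogenesis genes, 2 were called higher and 2 lower for IVM against PM. The rises, of MDH1 and MDH2, were smaller than that of the brighter PCK1 probe set (2.81) and near that of the dimmer one (1.14), PCK1 sizes that are uncertain. PCK2, the mitochondrial carboxykinase, differed by 0.77 ± 0.37 for IVM against PM (adjusted p = 0.113) and 0.88 ± 0.37 for IVM against VVM (adjusted p = 0.153); both were called without IVM 1 (1.19, adjusted p = 0.0245, and 1.30, 0.0399). The malate dehydrogenases rose in IVM, MDH2 by 1.11 ± 0.13 and MDH1 by 1.08 ± 0.16, and MDH2 was higher in IVM than in VVM by 1.18 ± 0.13 (adjusted p = 0.000440). The other MDH2 probe set, MmugDNA.4655.1.S1_at, was not called for IVM against PM (0.55 ± 0.30). It fell in VVM (-1.14 ± 0.27) and was higher in IVM than in VVM (1.69 ± 0.30). SLC37A4, the glucose 6-phosphate carrier, was higher in IVM than in VVM by 1.29 ± 0.22 and fell from PM to VVM by -0.96 ± 0.21. G6PC3, a phosphatase for the same sugar phosphate, fell by -0.95 ± 0.19 in IVM and -1.27 ± 0.17 in VVM, and GOT1 fell in IVM. MDH1 rose in VVM by 0.64 ± 0.15. PC and G6PC1 were not called in any comparison, and neither was the brighter probe set of FBP1. The dimmer one of FBP1, below the array median on every array, was called for IVM against PM (0.49 ± 0.14, adjusted p = 0.0194).

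The side branches of glucose use held some of the large rises. In the hexosamine pathway, GFPT2, an isoform of its first enzyme, read 6.47 to 7.57 in PM, 10.31 to 11.35 in IVM and 10.79 to 11.45 in VVM, a rise of 3.78 ± 0.29 in IVM (adjusted p = 1.17e-05) and 4.06 ± 0.27 in VVM (adjusted p = 6.07e-06). OGT, which attaches the sugar to proteins, rose by 1.45 ± 0.30 and 3.07 ± 0.28 and was lower in IVM than in VVM by -1.62 ± 0.30 (adjusted p = 0.00581). GNPDA1 rose and PGM3 fell in IVM, by 0.93 ± 0.26 and -0.96 ± 0.27, and PGM3 and OGA were lower in IVM than in VVM by -1.05 ± 0.27 and -1.0 ± 0.29. PGM3 against PM was lost without IVM 2 (-0.80, adjusted p = 0.0689) and PGM3 against VVM without IVM 1, IVM 2 or VVM 4 (-1.09 to -0.89), while OGA was lost without each of 8 arrays (adjusted p up to 0.156). The other PGM3 probe set, MmugDNA.42733.1.S1_at, differed by 0.07 ± 0.30 for IVM against PM, which was not called. It rose in VVM by 1.10 ± 0.28 and was lower in IVM than in VVM (-1.04 ± 0.30). UGP2, which makes UDP-glucose for glycogen and hyaluronan, rose by 2.83 ± 0.20 in IVM and 3.35 ± 0.18 in VVM. GYG1, the primer of glycogen, rose by 0.76 ± 0.22 in IVM, lost without IVM 3 (0.67, adjusted p = 0.0575), and 0.97 ± 0.20 in VVM.

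In the pentose phosphate pathway 4 genes were measured. TALDO1, a transaldolase, rose in IVM by 1.12 ± 0.12 and was higher there than in VVM by 0.95 ± 0.12 (adjusted p = 0.00101). RPIA fell by -1.21 ± 0.34 in IVM, lost without IVM 1 (-0.97, adjusted p = 0.0744), and by -1.62 ± 0.32 in VVM. PGLS rose in IVM by 0.64 ± 0.21 (0.54 to 0.68, and no longer called, when any IVM array, PM 1 or PM 3 was left out). KHK, which starts fructose breakdown, fell by -1.58 ± 0.28 in IVM and -1.53 ± 0.26 in VVM. Its other probe set was not called (-0.01 ± 0.14 and -0.02 ± 0.13). SORD fell by -1.80 ± 0.65 and -1.73 ± 0.60, each lost without most single arrays (adjusted p up to 0.111 and 0.109).

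Of 19 measured regulators, 12 were called for IVM against PM, 9 for VVM against PM and 4 for IVM against VVM. CEBPA, a C/EBP factor that drives PCK1 in liver, rose by 3.93 ± 0.52 in IVM (adjusted p = 0.000240) and 6.40 ± 0.48 in VVM (adjusted p = 1.07e-05) and was lower in IVM than in VVM by -2.47 ± 0.52 (adjusted p = 0.0114). The other CEBPA probe sets had smaller rises, of 1.21 ± 0.29 and 1.86 ± 0.28 in IVM and 3.50 ± 0.27 and 4.86 ± 0.26 in VVM. CEBPA levels ran VVM over IVM over PM, and any link to PCK1 in these cells was not tested. CEBPB rose in VVM by 2.42 ± 0.31, and was also called in IVM. CREB1, the cyclic AMP response factor, fell in IVM by -2.71 ± 0.16 in its brightest probe set. The other CREB1 probe set was called in no comparison. It differed by -0.28 ± 0.14 for IVM against PM, -0.02 ± 0.13 for VVM against PM and -0.26 ± 0.14 for IVM against VVM. MLXIP, a glucose-sensing factor, fell by -2.28 ± 0.30 in IVM and -2.01 ± 0.27 in VVM, while its other probe sets were not called. CREB1 (brightest probe set only), PPARGC1A, CRTC2, NR3C1, ATF4 and PRKAA2 (below the array median throughout) fell in both transitions, and ARNT, MYC and TXNIP in IVM. NR3C1, the glucocorticoid receptor, was lower in IVM than in VVM by -1.14 ± 0.18 (adjusted p = 0.00320). TXNIP, which restrains glucose uptake, was lower in IVM than in VVM by -1.63 ± 0.42, a call lost without IVM 1, IVM 2, VVM 1 or VVM 4 (-1.63 to -1.32, adjusted p up to 0.107). The brightest CREB1 probe set was lower as well.

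For each member, the genes with the most similar profile were ranked by Pearson correlation of log2 levels over the 11 arrays, among 12992 genes. These arrays form 3 groups, so a high value mostly states that 2 genes share an order of groups. For SLC16A1 they were AGK (0.995), ZNF407 (0.991) and GHDC (0.989), for SLC2A1 GUCD1 (0.953), ZNF143 (0.950) and FCGBP (0.947), for PFKL RFC5 (0.989), TJAP1 (0.982) and C15H9orf40 (0.977), and for PFKP PHKA2 (0.979), MON1A (0.962) and COL9A1 (0.959). ALDOC was closest to PRKD1 (0.951), CARNMT1 (0.918) and ADD3 (0.906), and PCK1 to IMP4 (0.968), ARL2 (0.949) and ST8SIA5 (0.947). LDHA, which varied least, had the lowest best match, with TOR1A (0.910), ATP7A (0.886) and PAPSS1 (0.866). No other gene of the 88 was among these.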

How the data were processed

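Total RNA of cumulus cells (50 ng a sample, amplified and labelled with biotin per the labels' protocols) was measured on 11 arrays. The deposited values are intensity on a linear scale, made by the authors with RMA, per the submitters' processing notes, which name Affymetrix Expression Console and RMA; background, quantile normalization and summary follow from RMA, and versions and settings are not given in the sources used here. RMA evens out the distribution of the arrays, so a shift of all genes together would not be seen. The medians of the deposited values still differed between PM and the matured groups. The log2 values of 52766 probe sets, without 99 controls, went into 1 limma 3.58.1 model (R 4.3.3) with a mean for each of 3 groups, moderated by eBayes (8 residual degrees of freedom, 3.30 from the prior). Two-sided p-values were adjusted by Benjamini-Hochberg over all probe sets in each comparison, and errors of differences are moderated standard errors. Symbols came from the array annotation, of which 24629 of 25330 rows matched RefSeq; 24956 probe sets had 1 symbol, 361 several and 27449 none. The number of arrays limits the precision, and no detection call was used: listed genes and members below the array median on every array are named as such where they are called. The test was tested on simulated data. The members, gene lists, covariates and alternatives were chosen with earlier results of these data known. Named were all member probe sets, every called listed gene, with values for up to 3 in a list and comparison, the other isoforms of the member families, and 3 genes of most similar profile for each member; genes outside this rule, such as those at which probe sets disagree or those named as not called, were chosen after their values were seen. Alternatives changed normalization, filters, threshold, representative probe set, prior, array weights, the arrays and groups used, and covariates.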

Additional observations from a re-analysis of the deposited data

Results flagged for a closer look

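A single PM array stood apart from the other 3 in 2 of 26 groups of 4 member values examined, where about 1 in 20 is flagged by chance. SLC2A1 (MmuSTS.3872.1.S1_at) was at 9.61 in PM 4, with the nearest PM array at 8.86. LDHA was at 13.36 in PM 3, with the nearest at 13.43, a small gap within a tight group.

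The change from PM differed between culture and in vivo maturation, by the IVM against VVM test of the same limma fit (Benjamini-Hochberg adjusted p under 0.05), in 5 of the 13 member probe sets. The log2 difference was 3.42 and 1.27 for the PCK1 probe sets, whose VVM values lie below the array medians so that the size is uncertain, -1.45 and -1.69 for the ALDOC probe sets and 0.51 for the SLC16A1 probe set MmugDNA.3536.1.S1_at. The other SLC16A1 probe sets were not called for IVM against VVM. Their differences were -0.65 ± 0.37 in the brightest, 0.28 ± 0.29 in MmugDNA.21701.1.S1_at and 0.33 ± 0.20 in MmugDNA.16888.1.S1_at.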

How the results depend on the processing

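Each count was recomputed under 28 settings. The count of member genes called for IVM against VVM, 2 as reported, was 1 with an adjusted p under 0.01, with either filter on dim probe sets (which leaves PCK1 out), with array weights, with only the 2 groups compared, with the 3' to 5' covariate and with the hybridization control covariate, and 1 to 2 when single arrays were left out. Under the hybridization control covariate the count fell from 5 to 0 for IVM against PM and from 4 to 2 for VVM against PM. The counts of other pathway genes were 19 between IVM and VVM, 49 for IVM against PM and 42 for VVM against PM. For IVM against VVM they were 10 with an adjusted p under 0.01, 12 with the leukocyte covariate and 3 with the hybridization control covariate. For IVM against PM they were 31 with an adjusted p under 0.01, 25 with at least a 2-fold change, 19 with the 3' to 5' covariate and 0 with the hybridization control covariate (limma, where 2 of all genes were called). For VVM against PM they were 23 with at least a 2-fold change, 23 with the leukocyte covariate, 18 with the hybridization control covariate and 26 without PM 1, VVM 2 and VVM 3. Single arrays left out gave, in this order, 13 to 21, 37 to 51 and 36 to 43. With the replicate block the member counts were 2, 5 and 4 and the pathway counts 16, 46 and 38. Residuals of same-numbered arrays correlated between -0.107 and 0.101. Differently numbered arrays were not set beside them, so whether same-numbered arrays share something was not tested. Centring the arrays moved the median of all genes from 0.12 to -0.03 for IVM against PM, from 0.04 to -0.07 for VVM against PM and from 0.08 to 0.04 for IVM against VVM, and the share of rises among calls from 54.5% to 37.9%, from 45.3% to 32.6% and from 54.3% to 49.0%. Centring subtracts each array's own median, and these medians averaged 5.35 in PM, 5.50 in IVM and 5.46 in VVM. It therefore lowers the matured groups relative to PM, and IVM relative to VVM. The cause of the moves in the counts was not tested, beyond the filters and thresholds themselves.

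No called member difference turned sign except, with the hybridization control covariate, ALDOC (its dimmer probe set) for IVM against PM (0.79). Of the uncalled ones, the sign turned under that covariate for IVM against VVM of SLC2A1 (0.049, and -0.080 in the dim probe set), SLC16A1 (0.22) and PFKL (0.050), for LDHA against PM (0.39 in IVM and 0.067 in VVM) and for VVM against PM of PCK1 (0.31 and 0.66). Under the leukocyte covariate it turned for PFKP (-0.24) and LDHA (-0.27) for IVM against VVM, for LDHA for VVM against PM (0.059) and for the dim SLC16A1 probe set MmugDNA.16888.1.S1_at for VVM against PM (-0.0085). Without PM 1, VVM 2 and VVM 3 it turned for the same PFKP (-0.083), LDHA (-0.18) and SLC16A1 (-0.13) differences. With the 3' to 5' covariate it turned for the dim SLC2A1 probe set MmugDNA.42958.1.S1_at for IVM against VVM (-0.014) and for VVM against PM of PCK1 (0.058 and 0.14). With median centring, repeated quantile normalization and cyclic loess, the dim SLC2A1 difference was -0.029, -0.037 and -0.080 and the dim SLC16A1 difference -0.078, -0.066 and -0.069, and with centring LDHA for IVM against VVM was -0.015. Leaving out single arrays turned the sign within ranges from -0.45 to 0.19 for SLC2A1, -0.046 to 0.065 for its dim probe set and -0.084 to 0.15 for LDHA for IVM against VVM, and -0.072 to 0.15 for the dim SLC16A1 probe set for VVM against PM.

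Of the other genes, the hybridization control covariate turned IVM against PM of HK3 (-0.44), BSG (-0.85), SLC16A7 (-1.06), PGM3 (0.59) and PYGL (0.14), VVM against PM of BSG (-0.13) and PCK2 (0.70), and IVM against VVM of SLC16A3 (0.43; -0.49 to 0.12 with single arrays left out). SLC16A7 for IVM against PM was -0.10 with centring, -0.12 with quantile normalization, -0.19 with cyclic loess, -0.47 with the 3' to 5' covariate and -0.25 to 0.33 with single arrays left out. PCK2 for VVM against PM was 0.11 with quantile normalization, 0.029 with cyclic loess, 0.41 with the 3' to 5' covariate and -0.20 to 0.12 with single arrays left out.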

Other observations

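Probe sets of 1 listed gene also disagreed in further cases, and those given here and above were chosen after their values were seen. EGLN1, a listed regulator, was not called for IVM against PM in its brightest probe set. It fell in IVM in MmugDNA.20459.1.S1_at (-2.30 ± 0.21) and MmugDNA.33378.1.S1_s_at (-2.12 ± 0.17), and its remaining probe sets were not called for IVM against PM. The brightest PYGL probe set, for liver glycogen phosphorylase, differed by -0.95 ± 0.23 for IVM against PM (adjusted p = 0.00712) and 0.15 ± 0.21 for VVM against PM (adjusted p = 0.628). The PYGL probe set MmugDNA.23693.1.S1_at rose by 2.44 ± 0.62 (adjusted p = 0.0101) and 4.09 ± 0.58 (adjusted p = 0.000380), and MmuSTS.2065.1.S1_at by 2.24 ± 0.71 (adjusted p = 0.0269) and 3.86 ± 0.66 (adjusted p = 0.00122). Both were below the array median on every PM array, so the size of their rises is uncertain. For PYGL, IVM was called lower than VVM in the brightest probe set (-1.10 ± 0.23, adjusted p = 0.0105, and -0.98, adjusted p = 0.0510, without IVM 2), and not in these others (-1.65 ± 0.62 and -1.62 ± 0.71, adjusted p = 0.117 and 0.170). A further PYGL probe set, MmugDNA.24505.1.S1_at, was above the median on all 11 arrays and was called in no comparison. It differed by -0.15 ± 0.20 for IVM against PM and -0.05 ± 0.19 for VVM against PM. What the probe sets of a gene measure differently was not tested.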
